A study of Mus musculus with 3 samples.

Results

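The TOM complex (translocase of the outer mitochondrial membrane) is the gate through which proteins made in the cytosol enter mitochondria, and 8 of its genes were followed through the germ cells of the mouse testis: Tomm5, Tomm6, Tomm7, Tomm20, Tomm20l, Tomm22, Tomm40 and Tomm70a. They were taken by symbol from the 31053 genes in the files, and all 8 were found. Tomm22 was known from these data to be strongly lower in round spermatids (RS) of both mutants, so the set was chosen by its level there, which is given as a description. What the set was followed for is whether the other 7 genes fell with it. The study compared testicular cells of wild-type (WT) mice with those of mice without GRTH/DDX25 (KO) and of knock-in mice (KI). GRTH is a DEAD-box RNA helicase of male germ cells, and KI mice carry a mutated human GRTH gene from which the phosphorylated form of the protein is not made. All mice were C57BL/6 and 8 weeks old per the labels, and the change is in the germline, so that all cells of a mutant carry it. The labels and the study's methods differ in the age range and in whether a library came from 1 mouse or from pooled testes. There was 1 single-cell RNA-seq library per genotype, so no test between genotypes was possible. Intervals are 95% and cover counting error alone, not the spread between mice.

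Newly made mitochondrial proteins are first bound by receptors on the outer membrane, of which TOMM20 and TOMM70 face the cytosol and TOMM22 is a central receptor that also holds the complex together. They are then passed through the channel formed by TOMM40, around which the small subunits TOMM5, TOMM6 and TOMM7 help assembly and stability. Tomm20l encodes a protein related to TOMM20. In spermatids the mitochondria are rearranged and later form the sheath of the sperm midpiece.

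The files held 82973909 unique molecular identifiers (UMIs, 1 per captured transcript) in WT, 91388296 in KO and 73150373 in KI. Kept cells numbered 5855, 4055 and 1572, with median UMIs of 5145, 4017 and 11741.5, and fell into 17 clusters that were made without the TOM genes. WT and KO shared 16 kept barcodes, WT and KI 36 (2.29% of the KI cells) and KO and KI 8. Listed barcodes numbered 6794880. Whether the sharing was more than random barcodes would give was not tested. Ddx25, the gene that encodes GRTH, was used to check the KO label. In RS-like cells it was at 110.5 CPM in WT and 131 CPM in KI, where CPM is UMIs of a gene per 1000000 UMIs of the same cells. KO gave 0 UMIs there, and a count of 0 allows up to 0.554 CPM. In SP-like cells it was at 218, 0.393 and 89.8 CPM and in cluster 2 at 209, 0.125 and 118 CPM, so that KI lay below WT there. Clusters were named from markers as early spermatocytes (Early SP-like, cluster 12), spermatocytes (SP-like, clusters 5, 6 and 13), RS-like (clusters 1 and 9) and elongated spermatids (ES-like, clusters 3, 4 and 7). Cluster 2 scored highest for SP but stayed unnamed, since Spag6, the SP marker among its 10 leading genes, was highest in a cluster of another class. It held markers of both neighbours, with SP markers summing to 4414 CPM in WT against 5220 in KO and 5237 in KI and RS markers to 2586, 2513 and 2161 CPM. In cluster 13 the RS markers summed to 86.6, 79.4 and 31.7 CPM, and in cluster 9 to 7041, 7246 and 6870 CPM. By these markers the order 12, 6, 13, 2, 9 and 7 was used below, and it is not a measured time course. Markers of Sertoli cells summed to under 25 CPM in clusters 13, 2 and 9 of all 3 libraries.

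Tomm22 lies on chromosome 15 from 79670861 to 79673400 on the plus strand of mm10 (GRCm38). Tomm20l (chromosome 12, 71111428 to 71123221, plus strand) overlaps Timm9 on the other strand, Tomm70a (chromosome 16, 57121703 to 57156705, plus strand) overlaps Nit2, and Tomm40 (chromosome 7, 19701313 to 19715438, minus strand) overlaps the antisense gene Gm20512. Tomm20 lies on chromosome 8 from 126930667 to 126945844, minus strand. The promoter of Tomm22 is shown beside that of Tomm70a, the member whose levels were most like those of Tomm22, and those of the related genes Tomm20 and Tomm20l, whose UMIs are set against each other further on. Each run holds 250 bases before the RefSeq start and 50 after it (GRCm38.p6), written in the gene's direction from 5′ to 3′, with searched motifs in capitals. Capitals are CCGGAAG or CTTCCGG (a core bound by ETS factors, both strands) in the first 2 and TGACG (the short form of the cAMP response element, CRE) in Tomm20.
Tomm22, chr15:79670618-79670917, plus strand: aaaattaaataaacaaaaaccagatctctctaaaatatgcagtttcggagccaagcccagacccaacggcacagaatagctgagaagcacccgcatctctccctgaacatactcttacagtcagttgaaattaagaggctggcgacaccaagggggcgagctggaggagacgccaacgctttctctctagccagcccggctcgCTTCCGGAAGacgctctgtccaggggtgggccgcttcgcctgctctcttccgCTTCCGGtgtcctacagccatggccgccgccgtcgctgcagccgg
Tomm70a, chr16:57121464-57121763, plus strand: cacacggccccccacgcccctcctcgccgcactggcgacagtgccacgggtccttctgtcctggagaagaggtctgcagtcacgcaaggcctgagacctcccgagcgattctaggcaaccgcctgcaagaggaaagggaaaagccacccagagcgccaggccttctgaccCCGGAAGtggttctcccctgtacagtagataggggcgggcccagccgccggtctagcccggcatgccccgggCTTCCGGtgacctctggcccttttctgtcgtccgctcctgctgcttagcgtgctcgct
Tomm20, chr8:126945872-126946171, minus strand: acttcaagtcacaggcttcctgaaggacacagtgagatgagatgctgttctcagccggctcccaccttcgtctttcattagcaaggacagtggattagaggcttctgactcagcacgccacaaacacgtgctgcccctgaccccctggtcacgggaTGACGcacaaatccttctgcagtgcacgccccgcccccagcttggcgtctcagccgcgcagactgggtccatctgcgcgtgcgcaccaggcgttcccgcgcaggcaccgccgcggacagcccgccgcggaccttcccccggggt
Tomm20l, chr12:71111178-71111477, plus strand: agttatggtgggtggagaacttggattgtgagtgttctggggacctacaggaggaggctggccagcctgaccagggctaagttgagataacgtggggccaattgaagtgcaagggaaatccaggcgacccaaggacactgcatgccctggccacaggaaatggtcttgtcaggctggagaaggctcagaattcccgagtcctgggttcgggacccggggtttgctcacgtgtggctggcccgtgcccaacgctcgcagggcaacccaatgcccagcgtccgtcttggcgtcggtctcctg
Of the 8 genes, 7 had a promoter in the RefSeq table, and Tomm7 had no entry. The ETS core stood in the promoters of Tomm22 (3 matches, at −47, −44 and 6 from the start, of which the first pair overlap) and Tomm70a (2 matches, at −80 and −8), and in 8.86% of all 32851 promoters. TGACG or CGTCA stood in Tomm20 and Tomm5 and in 20.8% of all promoters. The full CRE (TGACGTCA, in 1.79% of all promoters), which contains the short form, and the NRF1 core GCATGCGC (in 2.71%) stood in none of the 7. The letters of the ETS and NRF1 cores were shortened after the sequences had been read. For NRF1 only these exact letters and their other strand were searched, so a site with other letters would have been missed. A near match in the Tomm20 promoter, gcgtgcgc, was not counted. The Tomm20l promoter held 13 CpG pairs, compared with 24 in Tomm20, 23 in Tomm40, 22 in Tomm70a, 20 in Tomm22, 11 in Tomm6, 7 in Tomm5 and a median of 7 over all promoters.

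Tomm22 rose through meiosis in all 3 libraries and then parted between WT and the mutants. In Early SP-like cells it was at 320 CPM in WT against 325 in KO and 291 in KI. In cluster 6 it was at 792, 737 and 724 CPM, and in cluster 13, the last SP-like cluster, it reached its highest level of 1548, 1396 and 1417 CPM. Up to there the libraries lay close together, with log2 ratios to WT (1 CPM added) of −0.15 in KO (−0.20 to −0.10) and −0.13 in KI (−0.18 to −0.07) in cluster 13. In cluster 2, between spermatocytes and RS, it was at 1239 CPM in WT (12683 UMIs), 459 in KO (3674 UMIs) and 436 in KI (3854 UMIs), 2.70-fold and 2.84-fold lower than WT. In cluster 9, the RS-like cluster of deep cells, it was at 478 CPM in WT (3267 UMIs), 82.9 in KO (349 UMIs) and 60.95 in KI (251 UMIs), 5.76-fold and 7.84-fold lower. Both mutants thus stood below WT in clusters 2 and 9, and KI below KO in cluster 9, with a log2 ratio of KI to KO of −0.44 (−0.68 to −0.21). Within each library, the log2 ratio of cluster 9 to cluster 13 was −1.69 in WT (−1.76 to −1.63), −4.06 in KO (−4.23 to −3.92) and −4.52 in KI (−4.73 to −4.36). The median of all genes for the same clusters was −0.65, −0.45 and −0.40. Tomm22 was thus lower in cluster 9 than in cluster 13 in each library, WT included.

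**Figure D1:**
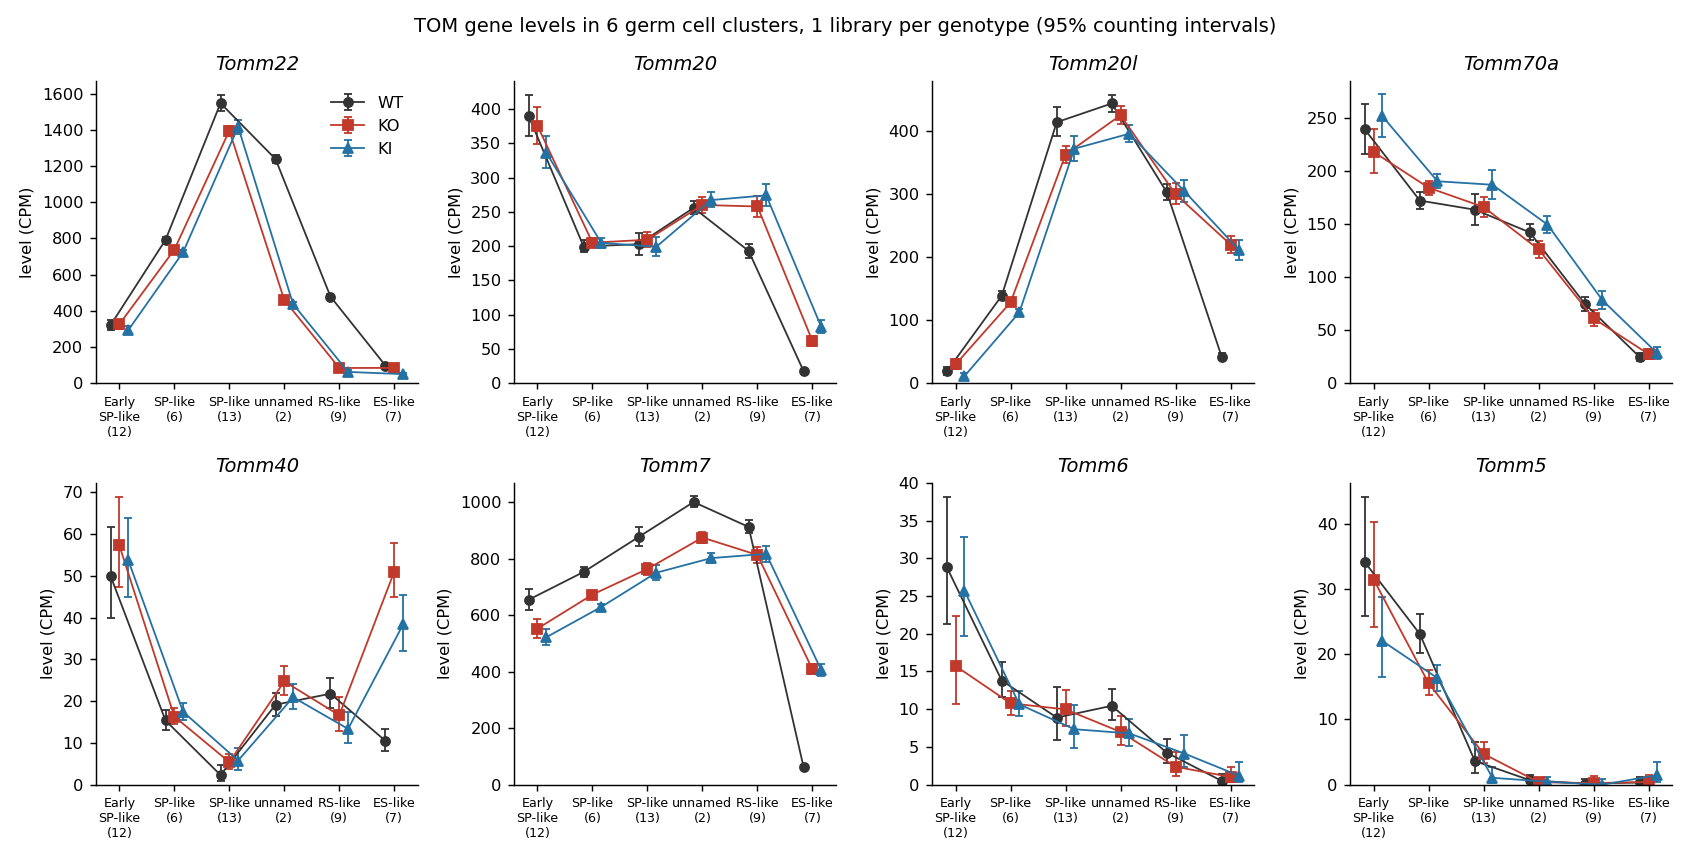
Level of each TOM gene in CPM (y axis, from 0) in 6 germ cell clusters ordered by their markers (x axis, cluster number in brackets), 1 point per library with its 95% counting interval and lines joining points of the same library. Tomm22 of KO and KI lies near WT up to cluster 13 and well below it in clusters 2 and 9, while the other genes with at least 10 CPM on average stay within 1.5-fold of WT there, apart from Tomm40 of KI in cluster 9.

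Over all RS-like cells Tomm22 was at 451 CPM in WT against 129 in KO and 66.2 in KI, with log2 ratios of −1.80 in KO (−1.93 to −1.69) and −2.75 in KI (−2.94 to −2.60). These ratios ranked 37 and 24 from the lowest of 8090 genes tested, where a gene counts as tested with a mean of at least 10 CPM over the libraries. The set was chosen for a low Tomm22 in RS of both mutants, so a low rank followed from that choice. The low-UMI RS-like cells of cluster 1 differed from those of cluster 9, with 304 CPM in WT (376 UMIs), 290 in KO (349 UMIs) and 95.9 in KI (69 UMIs). In these cells Tomm22 was thus lower in KI and not in KO. Tomm20 was higher there in both mutants, by 0.92 in KO and 0.86 in KI on the log2 scale, past 1.5-fold as were 24.3% and 21.7% of all 9316 genes tested, and 16.0% and 17.0% were lower by as much. In KI, Tomm7 was at 382 CPM compared with 562 in WT and Tomm20l at 142 compared with 204, log2 ratios of −0.56 (−0.76 to −0.35) and −0.52 (−0.87 to −0.19), lower but within 1.5-fold. In KO the same genes were at 599 and 248 CPM, log2 ratios of 0.09 and 0.28. Cluster 8, unnamed but scoring highest for RS, with RS markers at 4674, 4021 and 4230 CPM, held Tomm22 at 396, 569 and 382 CPM. There Tomm22 was higher in KO (526 to 614) than in WT (354 to 442), and KI lay close to WT. Cluster 1 held most of the RS-like cells, and the KO ratio depended on how cells were weighted. With each RS-like cell counted equally it was −0.53, inside the 1.5-fold limit of 0.585 on the log2 scale, and in KI it was −1.88. Barcodes taken as empty held Tomm22 at 714 CPM in WT against 495 in KO and 364 in KI, above the cluster 9 level of the same library in all 3. The part of free RNA in these levels was not tested. The empty barcodes of KO also held Ddx25, at 8.39 CPM, and whether their RNA came from that library alone was not tested.

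The share of cells with a Tomm22 UMI was compared at an equal depth of 2000 UMIs per cell. In cluster 13 it was 93.1%, 92.2% and 92.5% in WT, KO and KI. In cluster 2 it was 90.7%, 55.8% and 54.8%, and in cluster 9 it was 58.5%, 14.7% and 11.8%, so that fewer mutant cells held Tomm22 at that depth in these clusters. As counted, without thinning, the cluster 9 shares were 98.3% of 348 cells, 68.2% of 192 and 88.9% of 90, where KI cells were the deepest. No cell of clusters 13, 2 or 9 fell below the depth. In Sertoli-like cells, thinned likewise, the shares were 70.2%, 71.8% and 75.1%, after 112, 150 and 48 shallower cells were left out. Sertoli-like cells also held germ cell transcripts, with ES markers at 53620, 10680 and 12460 CPM beside 2903, 2700 and 4163 CPM of Sertoli markers, so these shares were not read as expression in Sertoli cells.

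**Figure D2:**
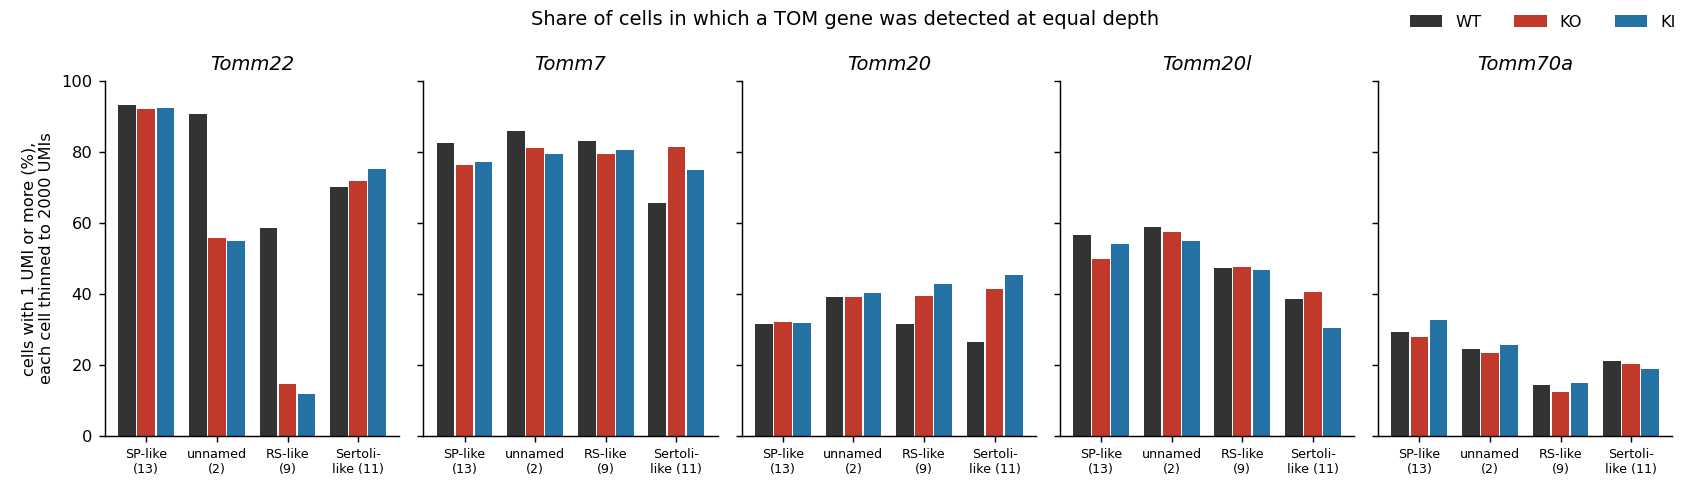
Expected share of cells with at least 1 UMI of a gene (y axis, percent) after each cell is thinned to 2000 UMIs, in clusters 13, 2 and 9 and in Sertoli-like cells (x axis), 1 bar per library. The Tomm22 bars of KO and KI drop in clusters 2 and 9, to 14.7% and 11.8% in cluster 9, while the Tomm7 and Tomm20l bars of cluster 9 differ by under 5 percentage points between libraries.

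The RS-like cells differed in stage markers between the libraries. ES markers summed to 40710 CPM in cluster 9 of WT, 15500 in KO and 10550 in KI. RS-like cells were therefore also split by the share of their UMIs from the protamine and transition protein genes Prm1, Prm2, Tnp1 and Tnp2, which rise late in spermatids. Under 1%, Tomm22 was at 607 CPM in WT against 140 in KO and 66.9 in KI, and from 1 to 5% it was at 359, 85.7 and 60.3 CPM. The log2 ratios were −2.11 and −3.16 in the first range and −2.06 and −2.56 in the second, for KO and KI. At 5% or more the mutants had 2 cells each and gave 3 and 2 UMIs, compared with 537 in WT. The ranges did not hold like cells, since the median UMIs per cell were 7367, 1590 and 2414 in the first and 1126, 1665 and 2636 in the second, and the part of stage in the Tomm22 values cannot be told from them.

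The other receptor genes did not follow Tomm22 in clusters 2 and 9. Tomm20 was at 256 CPM in WT against 260 in KO and 267 in KI in cluster 2, with log2 ratios of 0.02 (−0.06 to 0.11) and 0.06 (−0.02 to 0.14). In cluster 9 it was at 193, 258 and 274 CPM, higher in the mutants by 0.42 (0.30 to 0.54) and 0.50 (0.39 to 0.62) on the log2 scale, under 1.5-fold. The median of all genes was itself higher by 0.21 and 0.24 there, and with TMM size factors the RS-like ratios of Tomm20 were 0.16 and 0.27. Without integration of the libraries they were 0.71 and 0.78, past 1.5-fold, and with cells classed one by one from their own markers −0.11 and 0.09, so in KO the direction, and in both the size, depended on which cells were counted. Tomm70a, the receptor for carrier proteins of the inner membrane, was at 142, 126 and 149 CPM in cluster 2 and at 74.6, 60.8 and 78.0 CPM in cluster 9. It fell after meiosis in each library, by 1.12, 1.43 and 1.25 on the log2 scale from cluster 13 to 9 in WT, KO and KI. The median change of all genes there was −0.65, −0.45 and −0.40. Unlike Tomm22, Tomm70a of KO and KI was within 1.5-fold of WT in these clusters. Its log2 ratios to WT in cluster 9 were −0.29 and 0.06, beside the medians of 0.21 and 0.24. In RS-like cells they were −0.47 and −0.23 with TMM size factors, and over all alternatives run KO went from −0.51 to 0.38.

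Tomm20l was at 443 CPM in WT against 424 in KO and 395 in KI in cluster 2 and at 302, 299 and 304 CPM in cluster 9. The log2 ratios in cluster 9 were −0.01 (−0.12 to 0.09) and 0.01 (−0.09 to 0.11), and in RS-like cells 0.00 and −0.04. Its detection at 2000 UMIs in cluster 9 was 47.2%, 47.6% and 46.7%, above the 38.6%, 40.5% and 30.5% of Sertoli-like cells, whose median depth of all cells was 1466, 1544 and 1206 UMIs. Those Sertoli-like shares came from 72, 92 and 27 cells. Over all Sertoli-like cells Tomm20l was at 307, 277 and 267 CPM, so that by CPM cluster 9 was not above them in WT. Empty barcodes held it at 371, 408 and 337 CPM, and the part of free RNA in its levels was not tested.

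The pair Tomm20 and Tomm20l changed places during meiosis. Tomm20l gave 31 of the 694 UMIs of the pair in Early SP-like cells of WT, 4.47% (3.05 to 6.28). The share there was 7.26% in KO and 3.06% in KI. In cluster 6 it was 41.0%, 38.4% and 35.3%. In cluster 13 it was 67.1% in WT (64.9 to 69.2), 63.4% in KO and 65.1% in KI, and in cluster 2 it was 63.4%, 62.0% and 59.6%. Tomm20l thus went from a small part of the pair to the larger part in all 3 libraries. In cluster 9 the share was 61.0% in WT (59.4 to 62.7), 53.7% in KO (51.7 to 55.7) and 52.6% in KI (50.5 to 54.6), lower in the mutants, where Tomm20 was higher and Tomm20l was not lower. In cluster 7 it was 70.5%, 78.1% and 71.9%, not lower in the mutants. These shares compare 3′ tags, 1 per molecule, so they were not divided by transcript length. Empty barcodes gave 62.2%, 61.9% and 58.5%.

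**Figure D3:**
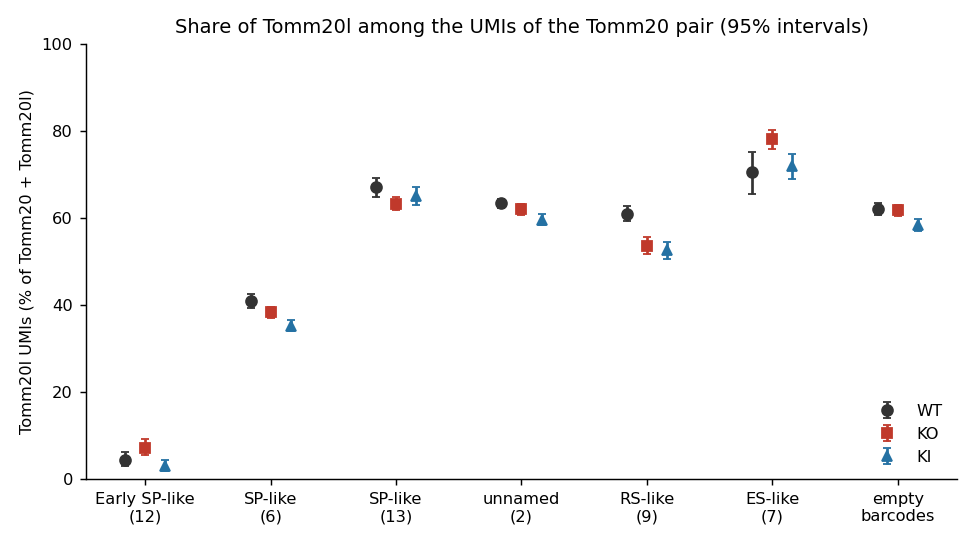
Tomm20l UMIs as a percent of the summed UMIs of Tomm20 and Tomm20l (y axis) in 6 germ cell clusters and in empty barcodes (x axis), 1 point per library with its exact 95% binomial interval. The share is under 8% in Early SP-like cells below 50% in cluster 6 and over 50% from cluster 13 on in all 3 libraries, with KO and KI below WT in cluster 9.

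The channel gene Tomm40 had few UMIs in clusters 13, 2 and 9. It was at 50.01 CPM in WT against 57.3 in KO and 53.9 in KI in Early SP-like cells, and in cluster 13 it gave 2.31, 5.40 and 5.77 CPM from 7, 39 and 22 UMIs. In cluster 2 it was at 19.2, 24.7 and 20.9 CPM, and in cluster 9 at 21.8, 16.6 and 13.4 CPM, from 149, 70 and 55 UMIs. The log2 ratio in cluster 9 was −0.37 for KO (−0.82 to 0.03) and −0.67 for KI (−1.18 to −0.25). Over RS-like cells it was −0.24 and −0.59, so that KI passed 1.5-fold by a small margin. With cells classed one by one from their own markers it was 0.56 and 0.21, and in cluster 2 it was 0.35 and 0.12, higher than in WT. No direction was therefore read for Tomm40 in RS. In cluster 7 it was at 10.5, 51.1 and 38.4 CPM, from 63, 250 and 131 UMIs, higher in both mutants.

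Of the small subunits, Tomm7 had the most UMIs and was within 1.5-fold of WT in clusters 2 and 9. It was at 1000 CPM in WT against 874 in KO and 802 in KI in cluster 2 and at 912, 813 and 817 CPM in cluster 9, with log2 ratios there of −0.17 (−0.23 to −0.11) and −0.16 (−0.22 to −0.10). From cluster 13 to 9 it moved by 0.06, 0.09 and 0.12 within WT, KO and KI, while the median of all genes moved by −0.65, −0.45 and −0.40. Tomm7 was also lower in the mutants in Early SP-like cells, at 654, 552 and 521 CPM, and in cluster 6, at 753, 672 and 629 CPM.

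Tomm5 was nearly absent from the late germ cells in all 3 libraries, while Tomm6 fell less. Tomm5 fell from 34.1, 31.5 and 22.0 CPM in Early SP-like cells to 7, 3 and 4 UMIs in all of cluster 2, and RS-like cells gave 2, 5 and 0 UMIs, too few for a ratio. In SP-like cells it was at 18.6, 12.8 and 14.3 CPM, a log2 ratio of −0.50 in KO (−0.77 to −0.30) and −0.36 in KI (−0.62 to −0.14). Tomm6 was at 28.8, 15.7 and 25.7 CPM in Early SP-like cells. In cluster 2 it was at 10.45, 6.99 and 6.79 CPM, from 107, 56 and 60 UMIs. RS-like cells gave 37, 15 and 17 UMIs, under 10 CPM in each library. Tomm6 shares 207 bases near its 3′ end, all identical, with Gm21981, which overlaps it on the same strand. Reads of Tomm6 and Gm21981 may thus not be told apart, so the low Tomm6 counts may not give its level. The antisense gene Tomm6os overlaps Tomm6 on the other strand. The other 7 genes matched no transcript of another gene with at least 95% identity over 100 bases of their last 300.

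Counted over the set, 1 of the 6 genes tested in cluster 2 was lower by at least 1.5-fold in each mutant, and it was Tomm22, for which the set was chosen. Of all 8025 genes tested there, 6.04% were lower by that much in KO and 6.75% in KI, and 5.16% and 6.54% were higher. The other 5 genes had a median log2 ratio of −0.06 in KO and 0.06 in KI beside 0.05 and 0.08 over all genes. In cluster 13, 0 of the 5 genes tested passed 1.5-fold, where 4.88% of all genes were lower in KO and 4.24% in KI and 4.27% and 3.12% were higher. In cluster 9 Tomm22 was lower in KO, and Tomm22 and Tomm40 in KI, of 6 tested, where 10.6% and 13.7% of all 7581 genes were lower and 23.8% and 28.7% higher. In RS-like cells Tomm22 was again the gene lower in KO, with Tomm40 beside it in KI, against 9.34% and 12.3% of 8090 genes lower and 24.1% and 26.3% higher. The median of the other 5 was −0.17 and −0.04 beside 0.22 and 0.22 over all genes. With TMM factors, which take up that shift, it was −0.46 and −0.31. In SP-like cells all 8 were tested and 0 passed 1.5-fold in either mutant, where 3.29% of 7742 genes were lower in KO and 4.53% in KI and 0.439% and 0.917% were higher. In Early SP-like cells, Tomm6 was lower and Tomm20l higher in KO and Tomm5 and Tomm20l lower in KI, each from 26 to 58 UMIs a library, where 4.87% and 5.57% of 9317 genes were lower and 6.56% and 4.41% higher.

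**Figure D4:**
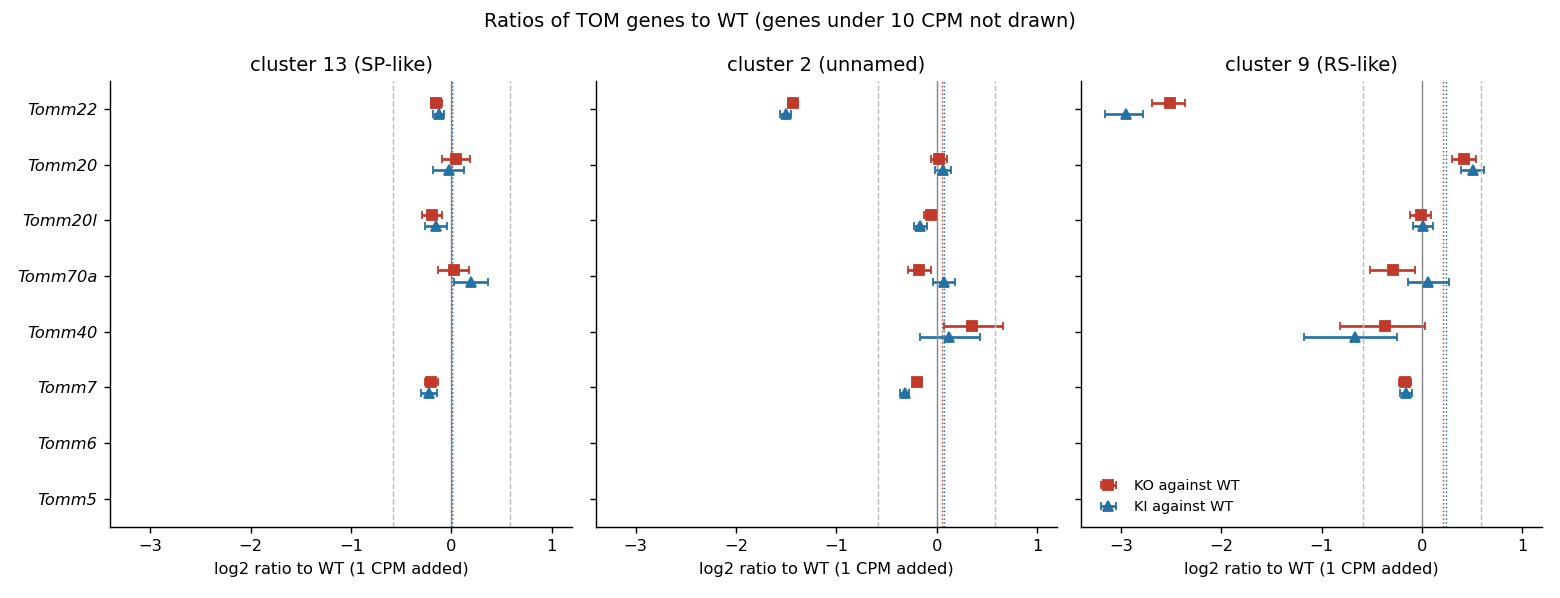
Log2 ratio of each TOM gene to WT with 1 CPM added (x axis) in clusters 13, 2 and 9, for KO and KI with 95% counting intervals, where dashed lines mark 1.5-fold and dotted lines the median of all genes tested. Tomm22 lies beyond 1.5-fold in clusters 2 and 9, at −2.51 and −2.95 in cluster 9, and of the other genes drawn only Tomm40 of KI in cluster 9 passes a dashed line.

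ES-like cells could not be compared at a like stage. In cluster 7, the ES-like cluster that held most mutant ES-like cells, Tomm7 was at 62.0 CPM in WT against 408 in KO and 406 in KI. Tomm20 was at 17.3, 61.5 and 82.0 CPM and Tomm20l at 41.4, 219 and 210 CPM, all higher in the mutants. Tomm22 was at 95.8, 83.3 and 48.9 CPM, and in KI its log2 ratio was −0.96 (−1.23 to −0.72), where 6.86% of all genes were lower by 1.5-fold (7.68% in KO). In cluster 4, also ES-like, Tomm22 was at 62.4, 291.5 and 118 CPM, from 469, 128 and 19 UMIs, and Tomm7 was at 61.5, 731 and 355 CPM, Tomm20 at 15.7, 180 and 80.95 CPM and Tomm20l at 19.2, 234.5 and 143 CPM. The cells of cluster 4 were not alike, with median UMIs of 7939, 1720 and 1579, and no direction was read from them. Of the 6 genes tested in cluster 7, 4 were higher by 1.5-fold in each mutant, as were 54.2% of all genes in KO and 55.0% in KI, and the median of all genes was higher by 0.68 and 0.70. ES markers summed to 245400 CPM in cluster 7 of WT, 92400 in KO and 91890 in KI, and RS markers to 2053, 5957 and 5557 CPM. The part of this difference in stage in the TOM values was not tested. Without integration of the libraries, WT had 2224 ES-like cells, KO 1 and KI 5. A further cluster of that run, with 16 WT, 353 KO and 126 KI cells, scored highest for ES. It stayed unnamed, since no ES marker was among its 10 leading genes, so these counts depend on the naming rule.

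The genes most like Tomm22 were taken over 37 points, the germ cell clusters of each library with at least 20 cells, by Pearson's r of log2(CPM + 1) among 4201 genes. They were Znhit3 (r = 0.97), Cox8c (0.97), Wdr12 (0.96), Commd1 (0.95) and 4930455B14Rik (0.95). Cox8c encodes a subunit of cytochrome c oxidase of the respiratory chain and Wdr12 a factor of ribosome assembly. Znhit3 was at 190 CPM in WT against 43.6 in KO and 56.8 in KI in cluster 2, compared with 324, 322 and 335 CPM in cluster 13. Cox8c was at 3577, 2093 and 2067 CPM in cluster 2 and at 1302, 524 and 559 CPM in cluster 9. Since the points include the mutants, a likeness to Tomm22 there was fixed by the choice of these genes, and the points share libraries and depth. Among members, r with Tomm22 was 0.77 for Tomm70a and from −0.33 (Tomm40) to 0.53 (Tomm20) for the other 6.

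Genes most like Tomm20l were Myl10 (r = 0.97), 4933405L10Rik (0.96), Zfp423 (0.95), 1700020D05Rik (0.95) and Dyrk3 (0.95). Myl10 was at 883 CPM in WT against 791 in KO and 759 in KI in cluster 2 and at 638, 565 and 600 CPM in cluster 9. Dyrk3, a protein kinase, was at 294, 394 and 389 CPM in cluster 2 and at 174, 253 and 290 CPM in cluster 9.

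Of 40 other genes of protein import and the outer membrane, 22 were tested in RS-like cells. In KO 2 were lower and 2 higher by 1.5-fold, and in KI 2 were lower and 3 higher. Over all genes 9.34% were lower and 24.1% higher in KO and 12.3% and 26.3% in KI. The share of import genes lower was thus near that of all genes, and the share higher was smaller. The median log2 ratio was 0.09 in KO and 0.05 in KI, beside 0.22 over all genes in each. Both mutants were lower in Dnajc19, at 268.5 CPM in WT (2168 UMIs), 99.6 in KO and 101 in KI, and in Timm21, at 50.3, 19.95 and 29.8 CPM. DNAJC19 and TIMM21 act at the TIM23 translocase of the inner membrane, the first with the import motor. Both were also lower in cluster 2, where Dnajc19 was at 36.9, 16.1 and 14.9 CPM, and Timm21 at 16.6, 6.99 and 10.4 CPM. Hspa9, the mitochondrial Hsp70 that drives the import motor, was higher, at 52.3, 114 and 128 CPM. In SP-like cells 29 of the 40 were tested and 0 passed 1.5-fold in either mutant, beside 3.29% of all genes lower in KO and 4.53% in KI and 0.439% and 0.917% higher.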

How the data were processed

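Testicular cells of 1 WT, 1 KO and 1 KI library were measured by droplet 3′ single-cell RNA-seq. The authors deposited matrices of raw UMI counts per gene and barcode, not filtered for cells. The labels name Cell Ranger 2.1.1 and mm10, while the headers inside the deposited count files name a later Cell Ranger release.

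Cells were called as Cell Ranger does, from 3000 expected cells and a comparison with barcodes ranked 45000 to 90000 (FDR 0.01), and kept with over 500 genes and under 10% mitochondrial UMIs. The comparison was capped at 20000 barcodes. It took in all 11017 eligible barcodes of WT and all 9160 of KI, but 20000 of 35728 in KO. The eligible KO barcodes with the fewest UMIs were thus not compared. SCTransform and anchors (Seurat 5.3.0) joined the libraries (2000 genes without import genes, 100 components) and clustered with leidenalg 0.10.2 at resolution 0.3. A cluster was named with 3 raised markers, a lead of 0.1 in score and an own marker among its 10 leading genes. That rule was set after the clusters and their TOM levels had been seen, and doublets were not removed: Scrublet marked too few cells of KO and KI to be taken to have worked.

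UMIs were summed per cluster and library as CPM. Log2 ratios had 1 CPM added. Their exact conditional binomial intervals came from the counts without it, so at low CPM an interval is not centred on its ratio. A gene was tested at a mean of at least 10 CPM and called at 1.5-fold. Named were all 8 TOM genes, import genes past 1.5-fold alike in both mutants in RS-like cells, and the 5 genes most like Tomm22 and Tomm20l. The members and lists were chosen with earlier results of these data known. Ratio scripts were tested on simulated data. Alternatives included TMM factors (edgeR 4.0.16), other classes and other filters.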

Additional observations from a re-analysis of the deposited data

Results flagged for a closer look

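Some log2 ratios to WT pointed in opposite directions between classes or mutants, and these differences were not tested. Tomm20l of KI was at −0.73 in Early SP-like cells, from 26 UMIs compared with 31 in WT, and at 2.64 in ES-like cells. Tomm20l of KO was at 0.66 in Early SP-like cells. Tomm22 in ES-like cells was at 0.32 in KO and −0.62 in KI, where the median of all genes was 1.199 and 1.164. KO turned to −1.01 with TMM factors, −0.32 with cells classed by their own markers and −6.22 without integration (1 cell), so that both mutants were then below WT. Tomm40 of KI was at −0.59 in RS-like cells and 2.51 in ES-like cells. In barcodes taken as empty, which enter no class, Tomm40 was higher in KO by 0.59 on the log2 scale, at 15.04 CPM in WT and 23.2 CPM in KO.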

How the results depend on the processing

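No paired analysis was possible because each genotype had 1 library, and for the same reason no library could be left out. Values are log2 ratios to WT in RS-like cells, KO before KI. Tomm22 (−1.80 and −2.75 as reported) stayed below 0 under all alternatives run. It was −2.09 and −3.03 with TMM factors, −2.25 and −2.95 with each cell classed by its own markers, −2.11 and −3.16 under 1% protamine UMIs, −2.06 and −2.56 from 1 to 5%, and −0.53 and −1.88 with each cell counted equally, where KO no longer passed 1.5-fold. With cells called by UMI total alone KO was −2.52. Chosen after seeing the data were clusters named by score alone (−1.11 and −2.05), cluster 9 (−2.51 and −2.95) and cluster 2 (−1.43 and −1.50). The median of the other tested genes (−0.17 and −0.04) was −0.46 and −0.31 with TMM, −0.081 and −0.20 from 1 to 5% protamine, −0.062 and 0.063 in cluster 2 and 0.077 and −0.34 with cells counted equally. For KO it was 0.10 without integration and −0.076 by score alone, and for KI −0.19 with no filter, −0.21 by own markers and −0.18 under 1% protamine. Tomm40 of KI turned to 0.21 by own markers and 0.12 in cluster 2. Without integration, ES-like cells (1 in KO, 5 in KI) gave Tomm7 at −6.20 and −0.76 and Tomm20 at −4.18 and −0.27. The unnamed cluster of that run that scored highest for ES, with most of its cells from KO and KI, was not in these values. The causes were not tested. Of 216 values of single genes in SP-like, RS-like and ES-like cells, leaving out Tomm22 in RS-like cells, 42 had the other sign than reported, 6 of them where the reported value passed 1.5-fold.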

Other observations

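In clusters not described one by one above, Tomm22 was at 966 CPM in WT against 907 in KO and 981 in KI in cluster 5, an SP-like cluster, and at 703, 791 and 785 CPM in the unnamed cluster 14. The unnamed cluster 10, led by mitochondrial transcripts, held it at 935, 1139 and 1215 CPM. In these 3 clusters Tomm22 of both mutants was within 1.5-fold of WT.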
